A study of Mus musculus with 4 samples.

Results

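Dcx, Sox11, Sox4, Dlx6os1, Ccnd2 and Dpysl3 are genes that young migrating neurons, called neuroblasts, are known to express. They were taken by name from the panel, 6 of 383 genes, with earlier results of these data known. They were followed across the tissue, along the ventricle wall, across cell classes and between ages. All 6 were measured in every section and passed the filter on low counts in each comparison given here.

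The panel was imaged by MERFISH, in which barcoded probes and repeated rounds of microscopy identify and count single RNA molecules in place. The 4 samples are 10 µm coronal sections of frozen mouse brain through the striatum of both hemispheres, 2 of them young (taken at 2 months of age) and 2 aged (18 months). The labels name no strain, genotype, sex or treatment for either age, and they do not say which animal a section came from, so p-values here measure the spread between sections. The counts in the deposited data are decoded transcripts per segmented cell.

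In the adult rodent brain, stem cells in the wall of the lateral ventricle, the ventricular-subventricular zone, give rise to dividing progenitors and then to neuroblasts. Neuroblasts travel in chains along the wall and leave it in a stream towards the olfactory bulb, where they become inhibitory interneurons. Several of these genes are not restricted to neuroblasts, since related programs of transcription and cytoskeletal growth are used by other young or plastic cells.

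With a minimum of 10 detected genes and 50 µm³ of volume per cell, 68011 to 74624 cells per section remained. Their transcripts numbered 36035355 and 31172121 for the young and 18765491 and 29004185 for the aged sections. The median cell had 400 and 325 transcripts at the young age and 215 and 293 at the aged, so the aged sections were shallower. No cell identifier was shared between sections. Identifiers inside the data of both young sections carry other numbers than their titles, and which of them is replicate 1 follows the title. A level below is the number of transcripts of a gene per 10000 transcripts of all panel genes in the same cells. Levels of different genes are not set against each other, because the number of probes per gene is not given in the sources used here.

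The files name no region, and the planned rule for the lining was replaced after seeing the data. The ventricle lining was located from 8 genes that are not among the 6, 3 of them genes of motile cilia (Rsph9, Riiad1 and Nme9), as cells with a high mean score that clustered together. This gave 195 and 234 lining cells in young against 210 and 235 in aged sections, in 2 runs per section, 1 per hemisphere. Kept cells within 100 µm of a lining cell are called the wall (1403 to 1910 cells per section). Those beyond 500 µm are called distant tissue (59108 to 65264 cells per section). The 8 lining genes summed to 218 and 168 transcripts per 10000 at the young walls and to 221 and 177 at the aged walls, and 0 of the 8 passed the test of age there.

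Sox11 and Sox4 encode related SoxC transcription factors of young neurons, and Dlx6os1 is a long noncoding RNA from the Dlx5/Dlx6 locus, which is active in the forebrain lineage that makes inhibitory neurons. Their promoter windows are shown because these 3 transcription-related genes moved together at the wall. The sequences are those of RefSeq for GRCm38.p6, all on the minus strand and written in the direction of the gene. For Sox11 (chr12:27342719-27342968) and Sox4 (chr13:28953700-28953949) they are the 250 bases before the annotated start. For Dlx6os1 (chr6:6869484-6869783) the window surrounds a start that lies inside the annotated gene and runs on for 50 bases into the noncoding transcript. Capitals mark CAGCTG, a form of the E-box that proneural basic helix-loop-helix factors are known to bind, and TAATTA, the core that many homeodomain proteins recognise. Both motifs read the same on either strand and do not overlap here.
Sox11: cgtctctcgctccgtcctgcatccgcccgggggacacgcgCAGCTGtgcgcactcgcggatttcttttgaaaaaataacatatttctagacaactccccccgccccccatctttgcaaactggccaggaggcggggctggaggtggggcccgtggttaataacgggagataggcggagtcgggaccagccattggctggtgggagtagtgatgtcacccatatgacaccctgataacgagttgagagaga
Sox4: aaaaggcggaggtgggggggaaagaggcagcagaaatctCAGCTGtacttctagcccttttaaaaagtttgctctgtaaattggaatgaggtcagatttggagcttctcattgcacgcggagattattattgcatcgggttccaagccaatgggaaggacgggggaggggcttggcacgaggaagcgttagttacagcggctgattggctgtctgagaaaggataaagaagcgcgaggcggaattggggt
Dlx6os1: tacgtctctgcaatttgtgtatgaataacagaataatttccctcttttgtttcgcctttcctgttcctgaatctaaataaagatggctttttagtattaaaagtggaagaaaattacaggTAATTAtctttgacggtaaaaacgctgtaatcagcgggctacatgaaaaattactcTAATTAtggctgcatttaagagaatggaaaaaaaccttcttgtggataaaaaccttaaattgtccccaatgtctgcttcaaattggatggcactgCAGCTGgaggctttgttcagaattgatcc
The E-box began 210 bases before the start of Sox11 and 211 bases before the start of Sox4. Each of these windows held 1 CAGCTG and no TAATTA. The Dlx6os1 window held 2 TAATTA and 1 CAGCTG, and a second annotated start of this gene held 1 TAATTA. A Dcx window on chromosome X held 1 TAATTA and no CAGCTG. It is not printed, since Dcx is not a transcription-related gene. Among all 32851 RefSeq promoter windows of 300 bases, CAGCTG occurred in 16.3% and TAATTA in 5.29%. These matches describe the letters only. Ccnd2 had no entry.

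**Figure D1:**
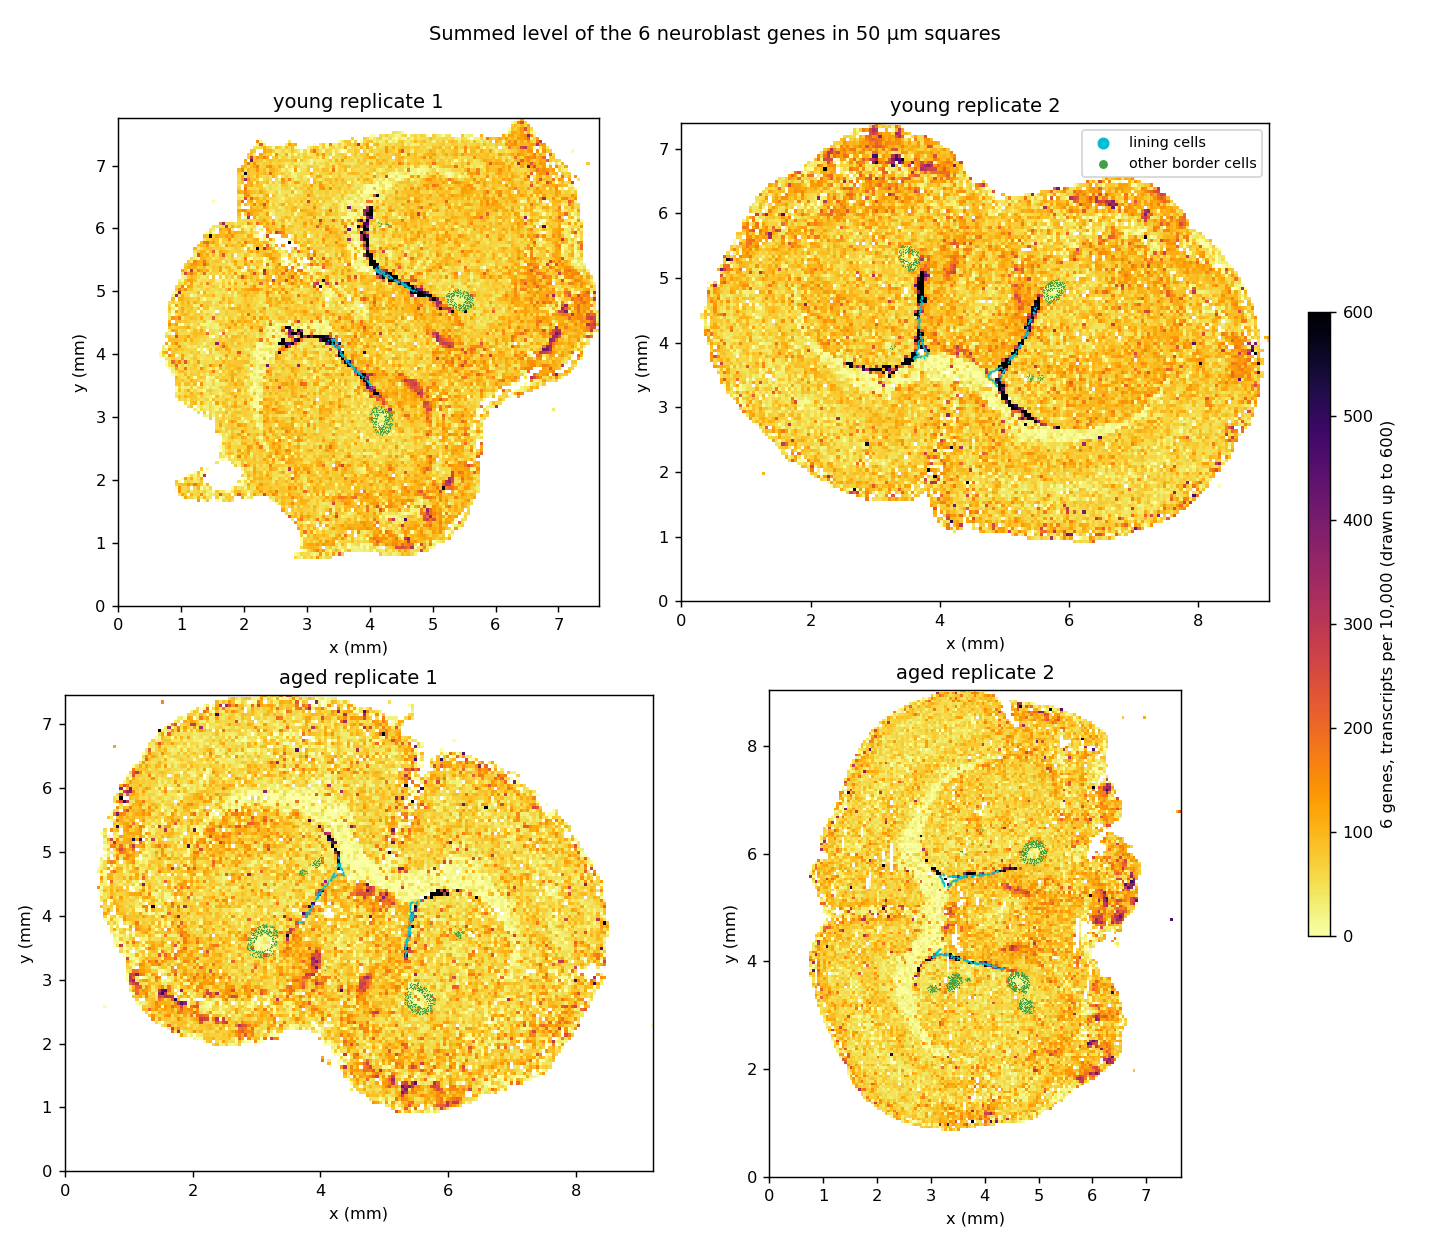
Summed level of the 6 genes in squares of 50 µm (transcripts per 10000, colour drawn up to 600) at their position in each of the 4 sections, with the cells of the ventricle lining in cyan and border cells away from the strips in green. Dark squares follow the lining in both hemispheres and continue past one end of it; the runs are longer and darker in the 2 young sections.

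Each of the 6 genes was higher at the wall than in distant tissue of the same sections. Sox4 showed the largest ratio, with 25.01 and 21.75 transcripts per 10000 at the young walls and 6.90 and 15.04 at the aged walls, against 2.09 to 3.34 in distant tissue over the 4 sections. Its log2 difference between wall and distant tissue was 2.51 (standard error 0.22). Sox11 was 2.30 higher (0.19), Dlx6os1 1.57 (0.20), Dcx 1.56 (0.17), Ccnd2 1.23 (0.19) and Dpysl3 0.91 (0.15) on the log2 scale, standard errors in parentheses. All 6 passed the quasi-likelihood test of edgeR (Benjamini-Hochberg adjusted, section as a block), with adjusted p from 1.5e-06 to 0.00031. The background of this comparison is high, since 64.5% of the 383 panel genes passed and 31.9% were higher at the wall. The median of the 6 genes was 1.56, against −0.04 over all genes tested.

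The rise was concentrated in the nearest tissue. Dcx encodes doublecortin, a microtubule-binding protein of migrating neurons. Its level in the young sections was 64.7 and 69.3 within 25 µm of a lining cell, 33.3 and 28.4 at 50 to 100 µm, 20.1 and 21.01 at 100 to 200 µm, and 12.3 and 12.4 beyond 1000 µm. In the aged sections the corresponding levels were 28.9 and 46.2, 18.0 and 20.5, 14.7 and 18.2, and 12.3 and 13.3. The ages did not overlap in any band from the lining out to 1000 µm for Dcx, and they overlapped beyond it. Here and below, non-overlap of the ages is a description, since 2 against 2 sections allow no exact two-sided permutation p under 0.333. The share of panel genes without overlap was not counted. Dlx6os1, which is also widely expressed in the striatum, overlapped between ages in all bands from 100 µm outwards. The lining cells themselves also carried the transcripts, with 56.7 and 64.2 per 10000 of Sox11 in young and 22.1 and 29.3 in aged sections, and segmentation in a 10 µm section does not separate a lining cell from a neighbour that touches it.

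**Figure D2:**
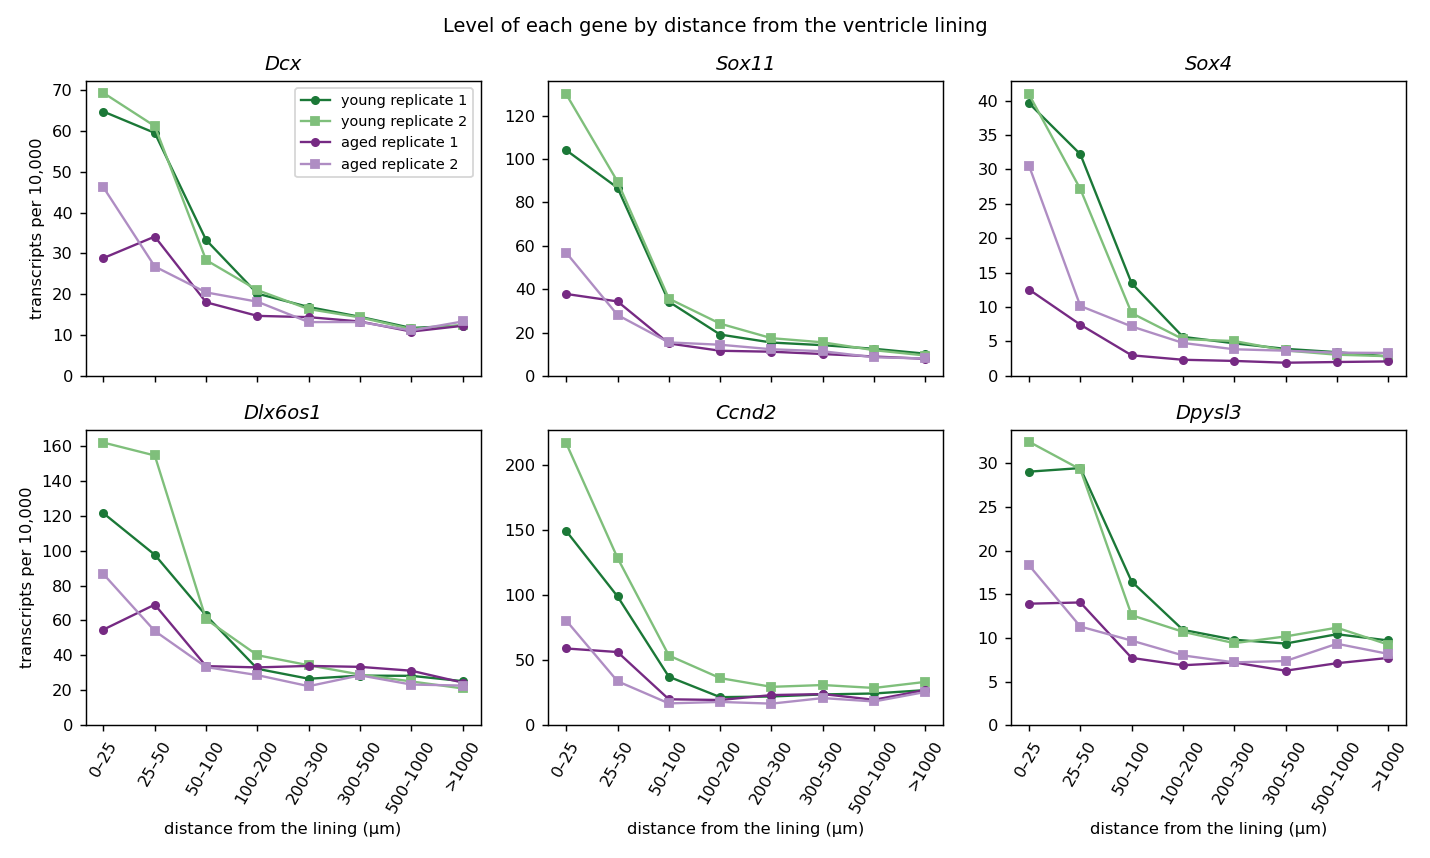
Level of each gene (transcripts per 10000) in 8 bands of distance from the ventricle lining, from 0 to 25 µm (lining cells included) to over 1000 µm, with 1 line per section. Within 100 µm both young lines lie above both aged lines for all 6 genes, and far from the lining the lines come together.

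Most wall cells lay on the striatal side, defined by at least 20% medium spiny neuron-like cells among the cells within 300 µm. This side held 1206 to 1574 cells per section and the other side 197 to 336. The 6 genes were higher on the striatal side, by log2 differences of 2.21 for Sox4 and Dlx6os1 (standard errors 0.22 and 0.16), 1.72 for Sox11 (0.16), 1.58 for Dcx (0.17), 1.06 for Dpysl3 (0.19) and 0.89 for Ccnd2 (0.15). All passed edgeR's test with the section as a block (adjusted p from 1.8e-16 to 1.0e-05), beside 32.5% of the 372 genes tested, 16.4% in this direction. For Dcx the striatal side had 54.7 and 55.6 transcripts per 10000 in young and 26.8 and 32.9 in aged sections, and the other side 19.7 and 13.9 in young against 10.3 and 11.8 in aged sections. With the limit set at 30% in place of 20%, 0 of the 6 passed and Ccnd2 was at −0.47, so this difference depends on where the sides are parted.

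The age change was tested on each side as an interaction term, and it did not differ between sides past the threshold for any of the 6 (log2 differences from −0.41 to 0.11, standard errors 0.30 to 0.45). In this test 0 of 372 genes passed with edgeR and Benjamini-Hochberg adjustment (0%), and 24 had an unadjusted p under 0.05, none of the 6 among them. The 95% interval for Dlx6os1, −0.96 to 0.28 by a normal approximation, leaves room for a change that differs nearly by a factor of 2 between the sides.

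With age, all 6 genes fell at the wall. Sox11, with 65.5 and 73.2 transcripts per 10000 in the young sections, had 25.9 and 30.7 in the aged sections. This is a log2 fold change of −1.31 (standard error 0.22, edgeR adjusted p = 0.00027), or a level 2.48-fold lower. Ccnd2 encodes cyclin D2, which drives progenitors into the cell cycle and is known to be needed for adult neurogenesis. It had 82.8 and 115 transcripts per 10000 in young and 39.1 and 39.8 in aged sections, a log2 fold change of −1.35 (standard error 0.22, edgeR adjusted p = 0.00019). Both genes were lower in each aged section than in each young section, and both passed the test whichever section was left out, where the age with 1 section left is assumed to vary like the other. Adjusted p here and below come from the quasi-likelihood test of edgeR, adjusted by Benjamini-Hochberg over all genes tested.

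Dlx6os1 had 87.2 and 108 transcripts per 10000 at the young walls and 46.95 and 53.8 at the aged walls, a log2 fold change of −0.97 (standard error 0.21, edgeR adjusted p = 0.0052). For Sox4, at 25.01 and 21.75 in young against 6.90 and 15.04 in aged sections, it was −1.09 (standard error 0.29, edgeR adjusted p = 0.032). The aged sections differed from each other more for Sox4 than for the other genes, and without aged replicate 1 its change was −0.63 with an edgeR adjusted p of 0.59.

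Dcx, the gene most used to mark neuroblasts, had 47.9 and 46.5 transcripts per 10000 at the young walls and 24.4 and 29.7 at the aged walls. Its log2 fold change was −0.81 (standard error 0.23, edgeR adjusted p = 0.04). Dpysl3 encodes a collapsin response mediator protein that acts on the cytoskeleton of growth cones. It had 22.9 and 21.6 transcripts per 10000 in young and 10.9 and 12.7 in aged sections, a log2 fold change of −0.92 (standard error 0.25, edgeR adjusted p = 0.032). No aged section reached a young section for either gene. Their adjusted p lay above the threshold of 0.05 without any 1 of the 4 sections, between 0.078 and 0.35.

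Over the panel, 13 of 383 genes passed at the wall (3.39%), 9 of them lower (2.35%), and the 6 were among these 9. Because the 6 were chosen with earlier results of these data known, this count is a description. The 6 had a median log2 fold change of −1.03, against 0.00 over all genes tested. The count of the 6 that passed fell to between 2 and 4 when 1 section was left out. It was 0 with the planned rule for the lining, on 3 cilia genes, and 0 with the other alternative rule. These rules marked 10 to 110 cells per section, and each gene kept its direction. Sums over a zone cannot tell apart fewer cells that carry a transcript and less of it in each such cell.

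The walls of the hemispheres gave the same order. The 4 young walls ranged from 40.1 to 57.8 transcripts per 10000 for Dcx and the 4 aged walls from 23.5 to 31.3. For Sox11 the ranges were 59.5 to 75.6 and 24.5 to 35.1. For Ccnd2 they were 73.8 to 119 and 36.2 to 43.1. For Sox4, Dlx6os1 and Dpysl3 each of the 4 young walls likewise lay above each of the 4 aged walls, at 20.6 to 30.6 against 5.61 to 16.5, 74.8 to 115 against 43.3 to 59.7 and 18.8 to 28.02 against 10.5 to 13.4. Both walls of a section share that section, so these are not further replicates. The share of panel genes with this order was not counted.

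Counted per cell in place of per transcript, the fall at the wall was larger. A median wall cell held 219 and 213 transcripts of all genes in young against 139 and 179 in aged sections. Dcx numbered 1.53 and 1.42 transcripts per wall cell in young and 0.470 and 0.725 in aged sections, and the log2 ratio of the mean levels went from −0.80 per 10000 transcripts to −1.30 per cell. For Ccnd2 it went from −1.33 to −1.83 per cell. Per 1000 µm³ of cell volume the ratios were −1.34 and −1.88. Distant tissue also had fewer per cell in the aged sections. Dcx numbered 0.660 and 0.551 per distant cell in young against 0.332 and 0.512 in aged sections. For Ccnd2 these were 1.43 and 1.46 against 0.707 and 0.957. The part of the lower depth of the aged sections in the values per cell was not tested.

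Markers of other cell classes were summed at the wall. The 7 astrocyte markers came to 642 and 536 transcripts per 10000 in young and 594 and 524 in aged sections, and the 7 medium spiny neuron markers to 465 and 420 in young against 482 and 437 in aged sections, with overlap between ages for both. The 6 oligodendrocyte markers came to 82.5 and 183 in young against 262 and 164 in aged sections, with positive log2 changes for all 6 (0.40 to 0.93), short of the threshold. In none of the 7 class lists did a marker pass the test of age at the wall, and no marker was at 0 there. The 4 panel genes that rose at the wall were C3, a complement component (log2 fold change 2.28), Il33, a cytokine (1.85), Pls1 (1.13) and Gatm (1.003), and Il33 and Gatm were among the top 10 genes of the oligodendrocyte-like cluster. The astrocyte-like share of wall cells was 36.2% and 30.7% in young against 26.7% and 25.4% in aged sections, and the oligodendrocyte-like share 3.17% and 6.96% against 10.7% and 7.18%. The part of these differences in the fall of the 6 genes was not tested.

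Farther out the same genes changed little with age per 10000 transcripts. In distant tissue 0 of the 6 passed edgeR's test, beside 1 of 383 genes (0.261%), and none of the 6 had an unadjusted p under 0.05. Dcx stood at 12.2 and 12.3 transcripts per 10000 in young and 11.995 and 12.9 in aged sections there, a log2 fold change of 0.06 with a 95% interval from −0.33 to 0.46. Sox11, at 10.7 and 9.81 in young against 8.08 and 8.14 in aged sections, gave −0.30 (95% interval −0.70 to 0.10), without overlap between the ages. In whole sections 0 of the 6 passed, beside 5 of 383 genes (1.31%), with log2 fold changes from −0.40 for Sox11 to 0.02 for Dlx6os1 and no unadjusted p under 0.05 among the 6.

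The difference between wall and distant tissue was itself tested, as the interaction of age and zone with the section as a block. It passed for 5 of the 6 genes, beside 13 of 383 genes (3.39%), 2.35% with the more negative change at the wall. The interaction was −1.11 for Ccnd2 (standard error 0.18, edgeR adjusted p = 0.00027), −1.02 for Dlx6os1 (0.20, adjusted p = 0.0028) and −1.002 for Sox11 (0.20, adjusted p = 0.0040). It was −1.08 for Sox4 (0.24, edgeR adjusted p = 0.0084) and −0.88 for Dcx (0.20, adjusted p = 0.011). For Dpysl3 it was −0.68 (0.22, edgeR adjusted p = 0.11), and its 95% interval ran from −1.11 to −0.25. The count was 0 without young replicate 1 and 1 without aged replicate 1, and 0 with a wall of 50 µm or 200 µm, each with the same direction for all 6 genes.

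**Figure D3:**
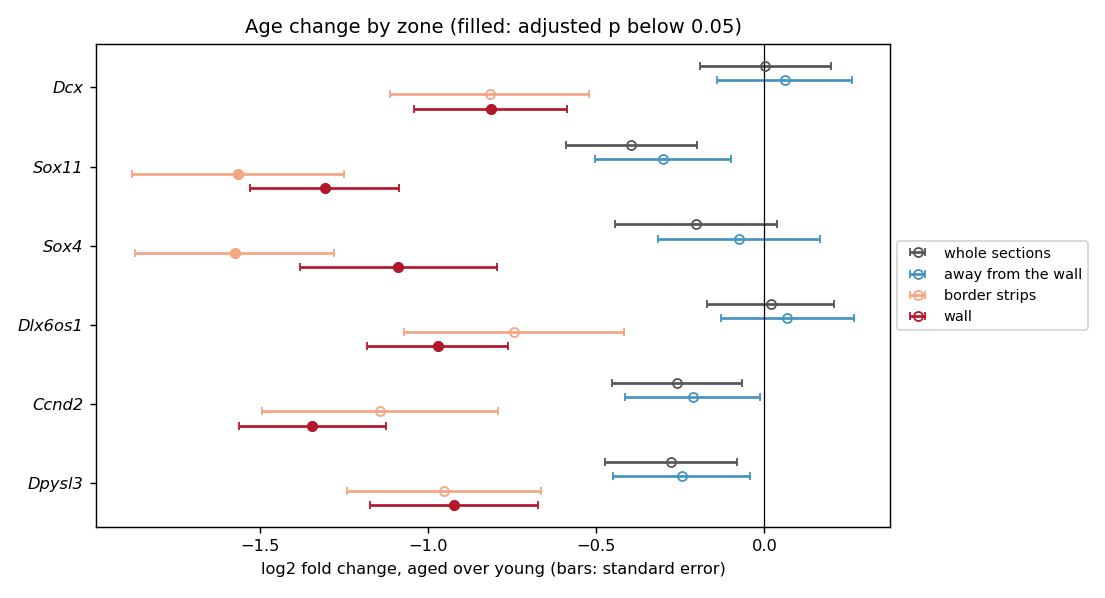
Log2 fold change of each gene, aged over young, from edgeR in whole sections, in tissue beyond 500 µm, in the border strips and at the wall (within 100 µm of the lining), n = 2 sections per age. Points are estimates, bars are standard errors and filled points have an adjusted p below 0.05; the wall and strip points lie between −1.6 and −0.7 and the whole-section and distant points between −0.4 and 0.1.

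A further list of 19 genes of the same niche was read at the wall for context. Of 8 genes of young neurons, Tubb3 (neuronal tubulin) and Marcksl1 (an actin-binding protein of growing neurites) fell, by 0.95 and 1.16 on the log2 scale (edgeR adjusted p = 0.031 and 0.013), and 6 did not pass. Of 5 genes of dividing cells, Top2a, the DNA topoisomerase of cycling cells, fell by 2.07 (edgeR adjusted p = 1.2e-05), and 4 did not pass. Top2a had 23.0 and 27.1 transcripts per 10000 at the young walls and 4.67 and 7.32 at the aged walls, the largest fall among the 383 genes. Of 6 genes of stem cells and progenitors 0 passed, with Egfr at −0.69, Fabp7 at −0.78 and Vim at 0.53. The median over these lists was −0.37, −0.75 and −0.34, against 0.00 for the panel. Thus 3 of the 19 genes passed, all lower, beside 2.35% of the panel. This list, too, was chosen with earlier results of these data known.

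At the wall the 6 genes were found in the same cells more often than their separate shares would give. To compare cells of unequal depth, each was thinned to 100 transcripts, and shallower cells were left out (402 to 561 per section at the wall). Of the cells so left out, 47.65% to 61.1% belonged to the unnamed cluster described below, which lost 69.1% and 70.1% of its wall cells in the young and 86.3% and 90.7% in the aged sections. A pair of genes was scored by the cells with both, divided by the number that the share of each gene alone would give. At the wall all 15 pairs were above 1 in every section, with medians of 1.94 and 2.03 in young against 2.46 and 2.25 in aged sections. The share of other panel pairs above 1 was not counted. Sox4 with Dpysl3 had a mean ratio of 2.98, Sox11 with Sox4 2.76 and Dcx with Sox4 2.72. The 4 lowest pairs were those of Ccnd2 with Dlx6os1 (1.49), Dcx (1.68), Sox11 (1.77) and Dpysl3 (1.80).

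In distant tissue the same ratios were near 1. Their medians were 1.29 and 1.25 in young against 1.14 and 1.25 in aged sections, with 10 to 12 of the 15 pairs above 1. All 5 pairs with Ccnd2 had a mean below 1 there, from 0.950 to 0.980, while Sox4 with Dpysl3 kept 1.59 and Dcx with Dlx6os1 1.53. Because cells share their section and its depth, these ratios are a description and carry no p.

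Cells with 3 or more of the 6 genes were counted in the same thinned cells, which lack a larger part of the unnamed cluster at the aged walls. They made up 25.8% and 25.4% of wall cells in the young sections (287 of 1113 and 362 of 1427) and 8.51% and 11.7% in the aged sections (74 of 870 and 140 of 1194). The exact two-sided permutation test gives p = 0.333 here, the smallest that 2 against 2 sections allow. Between 100 and 500 µm the shares were 4.22% and 4.64% in young against 2.70% and 2.92% in aged sections. Beyond 500 µm they were 2.41% and 2.39% in young against 1.83% and 1.97% in aged sections.

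As a background, distant vascular-like cells, a class that should lack neuroblast transcripts, were read without cells that also carried another class's markers. These cells showed 3 or more of the 6 in 0.416% and 0.357% of young and 0.200% and 0.0757% of aged cells. Their median depths before thinning were 125 and 120 in young against 99 and 109 in aged sections. With those mixed cells kept, as they were at the wall, the shares were 0.364% and 0.261% in young against 0.220% and 0.277% in aged sections, at median depths of 231 and 204 against 143 and 184. The share at the wall exceeded both backgrounds in every section. Without thinning, the wall shares were 49.0% and 48.1% in young against 17.4% and 25.1% in aged sections, and those of distant tissue, whose cells were deeper, 34.7% and 28.8% against 14.9% and 23.9%. The aged walls were thus close to aged distant tissue on the unthinned count.

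Among thinned wall cells, single genes were also detected in a smaller share with age. Thinning had left out a larger part of the unnamed cluster's wall cells in the aged sections, and its part in these shares was not tested. Sox11 was detected in 33.2% and 33.9% of thinned wall cells in the young sections and in 16.6% and 19.6% in the aged sections. For Ccnd2 the shares were 34.7% and 42.1% in young against 23.8% and 22.3% in aged sections. For Sox4 they were 20.5% and 18.4% in young against 5.63% and 11.5% in aged sections.

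The dark squares did not end with the lining. Past one end of each lining they followed a seam where tissue rich in oligodendrocyte-like cells meets tissue rich in medium spiny neuron-like cells. This seam was outlined from those neighbours (at least 25% and 15% of the cells within 150 µm) between 100 and 1000 µm from the lining. Clumps of border cells that ran the whole way out were called strips. They numbered 2 per section, 1 per hemisphere, and held 538, 459, 456 and 661 cells in young replicates 1 and 2 and aged replicates 1 and 2. The rule was settled on a map that also showed the 6 genes, so the comparison of strips with other borders is a description and has no test.

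In the strips Ccnd2 had 135 and 176 transcripts per 10000 in young and 89.9 and 42.9 in aged sections, while other borders of the same kind, around fibre bundles, had 8.21 to 17.4 over the 4 sections. Dcx had 41.6 and 40.2 in young strips and 27.1 and 16.4 in aged strips, against 6.53 to 8.10 in other borders. Sox4 had 23.7 and 26.1 in young strips and 8.36 and 7.24 in aged strips, against 2.86 to 3.76 in other borders. The levels in each strip zone thus exceeded those in the other borders of every section for these 3 genes, and the same held for Sox11, Dlx6os1 and Dpysl3. The young levels in the strips were close to those at the young walls for Dcx and Dlx6os1, and for Ccnd2 both lay above both wall values.

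**Figure D4:**
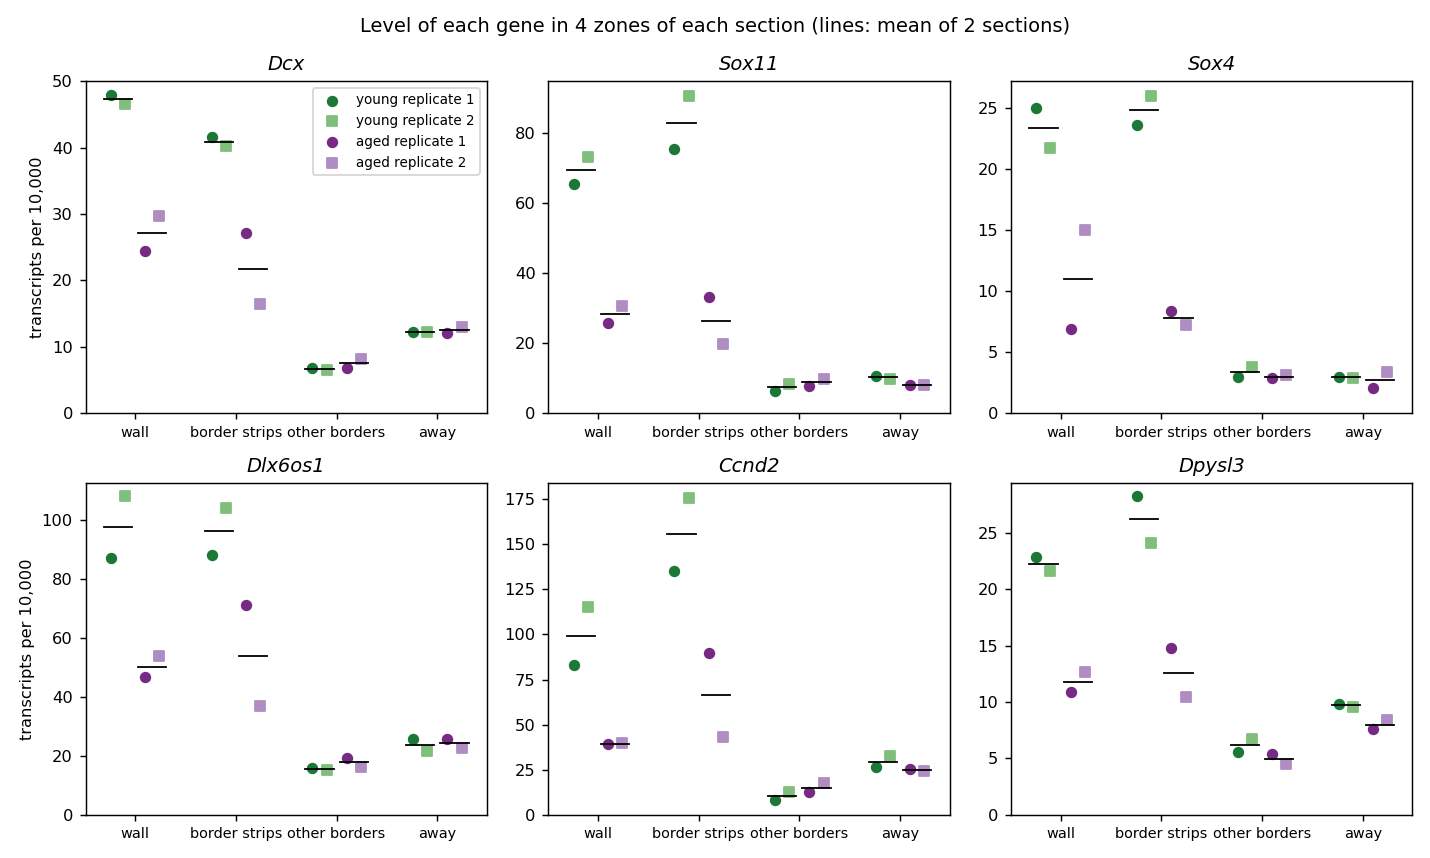
Level of each gene (transcripts per 10000) in the wall, the border strips, the other borders and tissue beyond 500 µm, with 1 point per section and a line at the mean of 2 sections. In the wall and strips both aged points lie below both young points for all 6 genes, while in the other borders and distant tissue the levels are low at both ages.

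With age the strips showed lower levels of all 6 genes, and 2 of these passed, beside 7 of the 363 genes tested (1.93%), 1.1% in this direction. The strip rule was settled on a map that also showed the 6 genes, and the adjusted p here do not allow for that choice. Sox11 had 75.4 and 90.7 transcripts per 10000 in young and 33.2 and 19.8 in aged strips, a log2 fold change of −1.57 (standard error 0.32, edgeR adjusted p = 0.028). Sox4 gave −1.58 (standard error 0.30, edgeR adjusted p = 0.028). Ccnd2 was at −1.14 (0.35), Dpysl3 at −0.95 (0.29), Dcx at −0.82 (0.30) and Dlx6os1 at −0.74 (0.33), with edgeR adjusted p from 0.094 to 0.25. The count was 0 without young replicate 2, without aged replicate 1 or without aged replicate 2, and 6 with library totals alone in place of TMM. In simulated data this test called 47.3% of genes changed 2-fold.

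In the strips, too, all 15 pairs were above 1 in every section. The share of other panel pairs above 1 was not counted there either. With cells thinned to 100 transcripts the medians were 2.21 and 2.25 in young against 2.78 and 3.57 in aged sections. With cells thinned to 50 they were 2.35 and 2.33 in young against 2.97 and 5.90 in aged strips, and 2.13 and 2.40 against 4.58 and 3.21 at the wall, so the order of strips and wall depended on the depth chosen. Dcx with Sox4 led in the strips with a mean ratio of 4.16 at 100 transcripts. Cells with 3 or more of the 6 genes made up 27.01% and 29.4% of thinned strip cells in young and 14.2% and 7.39% in aged sections, against 1.26% to 1.61% in other borders (exact two-sided permutation p = 0.333 between ages, the smallest possible).

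To see where the richest tissue lay without using a gene to choose its own squares, squares of 50 µm were ranked for each gene by the other 5. Of the top 1% of squares of a section, 39.2% to 50% lay within 100 µm of the lining in the young sections, over the 6 rankings, and 12.8% to 27.3% in the aged sections. That zone holds 1.503% to 1.66% of all squares. Between 100 and 1000 µm lay 43.3% and 33.1% of the top squares in the young and 27.7% and 13.6% in the aged sections, as means of the 6 rankings. Beyond 1000 µm lay 3.73% to 31.7% in young and 50% to 69.5% in aged sections. In the squares so chosen between 100 and 500 µm, the gene left out was itself 5.60 to 17.8 times its mean over the section, in every section and for each of the 6.

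Along the wall itself, cells within 400 µm of a strip, at 400 to 800 µm and farther away were compared. In aged replicate 1 the nearest part was highest for all 6 genes, for example 32.2, 21.4 and 20.6 transcripts per 10000 of Dcx. In aged replicate 2 the nearest part was lowest for Dcx, with 18.6, 39.9 and 29.2. In young replicate 2 the middle part was lowest for Dcx and for Sox11. For these genes no order along the wall was shared by the 4 sections.

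Away from the niche the 6 genes parted ways by cell class. Classes were rebuilt by clustering without the 6 genes or the 19 niche genes and named from fixed markers. One cluster, with a median of 48 transcripts per cell and no marker of its best-matching class raised 1.5-fold, is called the unnamed cluster. Oligodendrocyte precursor-like cells had the highest distant level of Dcx (22.6 to 26.3 transcripts per 10000 over the 4 sections), of Sox11 (19.8 to 24.03), of Sox4 (12.9 to 31.9) and of Dpysl3 (36.4 to 45.6). For Sox4 and Dpysl3 these ranges did not overlap those of any other class. For Dcx and Sox11 they overlapped the unnamed cluster.

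For Dcx the order went on with neuron-like cells (18.9 to 20.6) and medium spiny neuron-like cells (10.4 to 11.2), whose ranges did not overlap. Vascular-like, oligodendrocyte-like, microglia-like and astrocyte-like cells followed between 0.335 and 2.18, with neighbours overlapping. For Sox11, astrocyte-like (10.2 to 14.2) and medium spiny neuron-like cells (10.6 to 13.7) could not be ordered. Neuron-like (7.42 to 10.7) and microglia-like cells (4.29 to 8.40) came next, and oligodendrocyte-like cells were lowest (1.53 to 2.70). For Sox4 every class other than the precursors, the microglia-like cells (4.99 to 11.4) and the unnamed cluster had between 1.08 and 3.24, with neighbours overlapping.

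Dlx6os1 was a gene of inhibitory neurons in distant tissue. Medium spiny neuron-like cells had 42.6 to 49.0 transcripts per 10000, above the 20.4 to 26.0 of neuron-like cells and the 1.38 to 1.87 of oligodendrocyte-like and astrocyte-like cells, while the unnamed cluster (41.7 to 61.7) overlapped the spiny class. Ccnd2 had no class of its own. Medium spiny neuron-like, vascular-like, neuron-like, astrocyte-like and precursor-like cells and the unnamed cluster lay between 18.6 and 59.3 with neighbours overlapping, and microglia-like and oligodendrocyte-like cells between 5.70 and 11.1. For Dpysl3 the precursors were followed by the unnamed cluster (8.71 to 15.9), neuron-like (9.30 to 13.4) and vascular-like cells (6.91 to 10.8), which overlapped, and by the other classes from 2.32 to 5.14.

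**Figure D5:**
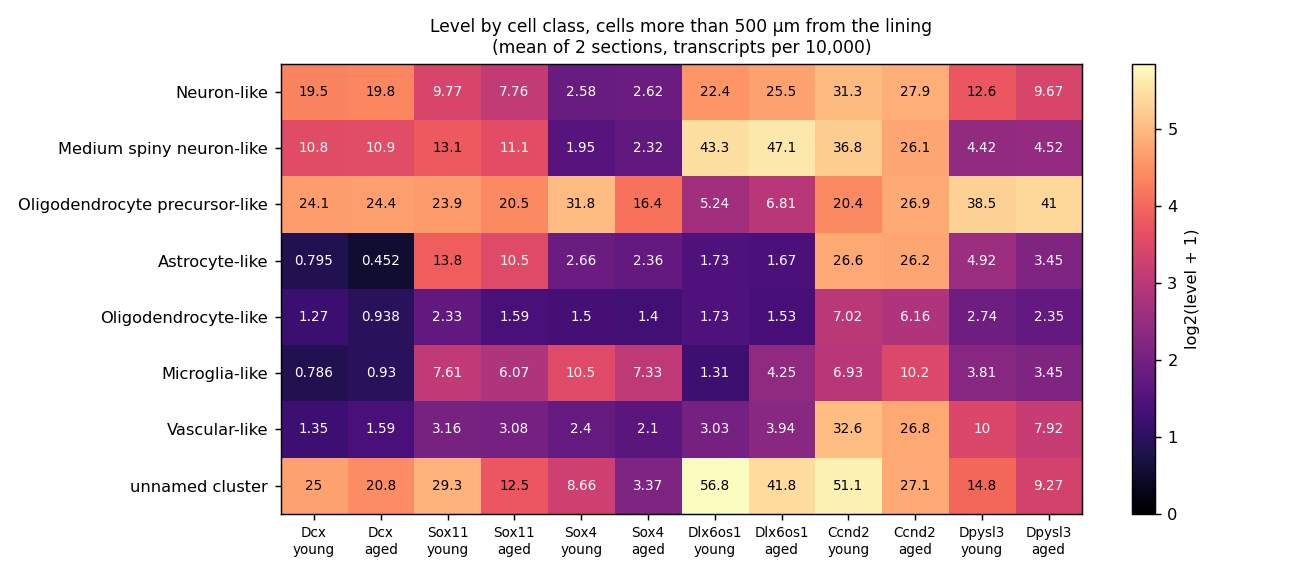
Level of each gene (transcripts per 10000, mean of 2 sections, printed in each cell and coloured as log2 of the level plus 1) by rebuilt cell class and age, in cells beyond 500 µm from the lining. Oligodendrocyte precursor-like cells stand out for Sox4 and Dpysl3, medium spiny neuron-like cells for Dlx6os1, and Sox4 in the precursors falls from 31.8 to 16.4.

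The unnamed cluster stood out at the wall. Its top genes by fold were Top2a, Sox4, Cxcl1, Sox11, Dlx6os1 and Dcx, 4 of the 6 among them, although none of the 6 was used to form it. It made up 21.65% and 22.4% of wall cells in young against 19.96% and 19.1% in aged sections, and 4.47% to 8.71% of distant cells. Its wall cells had 289 and 260.1 transcripts per 10000 of Dcx in young against 132 and 204 in aged sections, while its distant cells had 19.2 to 29.6. Dlx6os1 in these wall cells stood at 617.5 and 778.5 in young against 246 and 432 in aged sections, and Sox11 at 324 and 379 against 151 and 214. Both aged values lay below both young values for each of these 3 genes.

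Over the whole unnamed cluster the 6 genes had a median log2 fold change of −1.10 with age. Sox11 was at −1.37 (standard error 0.35), Sox4 at −1.36 (0.54) and Ccnd2 at −1.20 (0.35). None of the 6 passed edgeR's test (adjusted p from 0.56 to 0.69), and all 6 had an unadjusted p under 0.05, beside 24 of 373 genes. Beyond 500 µm, the change in this cluster was −0.01 for Dcx and −0.19 for Dlx6os1, and −0.997 for Sox11. Wall cells of this cluster were shallow, with medians of 64 and 64 transcripts in young against 31 and 37 in aged sections, and their part in these changes was not tested.

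Over the 8 clusters and 6 genes, 48 age changes were tested on counts summed per section, and 3 passed, all in astrocyte-like cells. In that class 12 of 376 genes passed (3.19%), 10 of them lower (2.66%). Dlx6os1 had 4.56 and 7.28 transcripts per 10000 in young and 3.18 and 2.31 in aged astrocyte-like cells, a log2 fold change of −1.15 (standard error 0.27, edgeR adjusted p = 0.0021). Sox11, with 19.7 and 21.4 in young against 12.3 and 13.3 in aged sections, changed by −0.73 (standard error 0.20, edgeR adjusted p = 0.011). For Dcx, with 3.31 and 3.06 in young against 1.55 and 1.75 in aged sections, the change was −0.99 (standard error 0.30, edgeR adjusted p = 0.027).

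The change of Dlx6os1 went with place. Astrocyte-like cells within 100 µm of the lining had 25.7 and 39.6 transcripts per 10000 of Dlx6os1 in young and 14.2 and 6.46 in aged sections, against 1.59 to 1.87 beyond 500 µm. With cells beyond 500 µm alone, 0 of the 6 genes passed in this class, and Dlx6os1 stood at −0.08. The estimates for Dcx (−0.83, standard error 0.40), Dpysl3 (−0.54, 0.24) and Sox11 (−0.42, 0.18) stayed further below 0 there. Sox4 was at −0.20 (0.31) and Ccnd2 at −0.05 (0.17). The count over all classes was 6 without young replicate 1 and 1 without aged replicate 1, and neither Sox11 nor Dcx passed in astrocyte-like cells with any section left out.

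In oligodendrocyte precursor-like cells Sox4 was at −0.95 over the whole class (standard error 0.28, edgeR adjusted p = 0.23), short of the threshold. In precursor-like cells beyond 500 µm it had 31.9 and 31.7 transcripts per 10000 in young and 12.9 and 19.9 in aged sections, and there it passed (log2 fold change −1.05, standard error 0.25, edgeR adjusted p = 0.00087). There 6.47% of 278 genes passed, 4.68% lower, against 0.692% of the 289 tested in the whole class. The other 5 genes did not pass in these cells in either setting. In medium spiny neuron-like, neuron-like and vascular-like cells and in the unnamed cluster 0 of 383, 383, 383 and 373 genes passed (0%), with 29, 18, 31 and 24 at an unadjusted p under 0.05. In the unnamed cluster all 6 were among those 24, as described above. In microglia-like and oligodendrocyte-like cells none of the 6 passed (1.2% and 1.05% of genes).

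The genes most like each of the 6 across tissue were found by Pearson's r of log2(level + 1) over squares of 100 µm, averaged over the 4 sections (3469 to 4108 squares each). Squares of a section share depth and tissue type, so r is a description. For Dlx6os1 they were Gad2 (0.773), which makes GABA, Slc32a1 (0.508), which loads it into vesicles, and Scg2 (0.494). For Dcx they were the neuronal genes Meg3 (0.619) and Syp (0.616) and then Zcchc18 (0.575). For Sox11 they were Dcx (0.417), Nsg2 (0.381) and Blcap (0.373), and for Sox4 they were Sox11 (0.239), Marcks (0.238) and Dcx (0.214).

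For Ccnd2 the most alike genes were Atp2b1 (0.373), Dio2 (0.351) and Cplx2 (0.317), and for Dpysl3 Nap1l5 (0.383), Elavl2 (0.379) and Stmn2 (0.353). Over whole sections the 15 pairs among the 6 genes had a median r of 0.187, from −0.12 for the lowest pair to 0.417 for Dcx with Sox11. In the squares within 500 µm of the lining (363 to 423 per section) the median was 0.495, from 0.342 to 0.737, and Dcx, Sox11 and Dlx6os1 were then among the 3 genes most like one another.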

How the data were processed

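MERFISH images of the 4 sections were decoded with MERLIN and segmented into cells by the authors. The deposited counts are decoded transcripts per gene and segmented cell, not normalized and not filtered. Each cell's volume, an imaging signal in µm³, and its position were deposited with them. Their table of mean counts per section served only to check the reading of the files. The genome build behind the probes is not given in the sources used here.

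Cells were kept by the minimum gene number and volume of the study's methods. Counts were summed per section and zone or class, so that sections were the replicates. Ages were compared by edgeR 4.0.16 in R 4.3.3 (its quasi-likelihood test after TMM scaling and filterByExpr, with p adjusted by Benjamini-Hochberg and called below 0.05), and zones of the same section with the section as a block. DESeq2 1.42.0 was an alternative. Single shares were compared by two-sided exact permutation tests.

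Lining cells had a mean z-score above 1.5 over Rsph9, Riiad1, Nme9, Rassf9, Tm4sf1, Dsg2, Ezr and Pltp, with at least 3 other such cells within 50 µm. This rule was added after seeing the data, because the planned rule on 3 cilia genes gave only 10 to 110 cells, part of them scattered. The strips and their test were added too. Cells were clustered by the Louvain method (igraph 0.11.9, 20 neighbours, 15 components) without the 6 genes and the 19 niche genes, at a resolution of 0.3. The study's 0.08, planned as the reported one, joined precursor-like and shallow cells to the astrocyte-like cluster and is kept as an alternative. Clusters were named from fixed marker lists, and cells with 3 or more markers of their own and of another class were left out of class sums. For this filter a cell's own class was its cluster at a resolution of 0.08. Precursor-like and shallow cells that were joined to the astrocyte-like cluster there were left out only with 3 or more astrocyte markers. They also had to carry 3 or more markers of another class, precursor markers included. Python 3.11.15, numpy 2.4.6, pandas 2.3.3 and scipy 1.17.1 were used for the other steps.

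The genes and lists were chosen with earlier results of these data known. Named genes are the 6, the niche genes that passed at the wall with up to 3 that did not, and the 3 genes most like each of the 6. Replicate numbers were not taken to pair the sections. The deviations of same-numbered sections from their age means correlated at −0.27 over genes. With 2 sections per age both numbers must give the same value, so it cannot show whether sections are paired. The fits were tested on simulated counts with 200 of 383 genes changed and the same dispersion for every gene. This share is larger than passed in the age tests given here, and a smaller share was not simulated. The rates called may therefore be too high for these tests. At the wall, 73% of genes changed 2-fold and 27% of those changed 1.5-fold were called. Beyond 500 µm, 96% and 57% were called. Sections differ in depth, and the aged ones were shallower, so shares of cells were compared after thinning. At the wall, thinning left out a larger part of the unnamed cluster in aged sections, so it does not fully even out depth.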

Additional observations from a re-analysis of the deposited data

Results flagged for a closer look

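For 5 genes the age change at the wall differed from that of the same gene beyond 500 µm, by an interaction test with the section as a block (edgeR, Benjamini-Hochberg adjustment). On the log2 scale the change at the wall was more negative by −1.11 for Ccnd2, −1.08 for Sox4, −1.02 for Dlx6os1, −1.002 for Sox11 and −0.88 for Dcx. Both aged walls lay below both young walls for each of these genes, an order whose share over the panel was not counted.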

How the results depend on the processing

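Across the alternatives run, the 6 genes were higher at the wall than beyond 500 µm and lower with age at the wall and in the strips in every case, so direction held there, while the number of them past the threshold moved. At the wall 6 passed, against 2 to 4 with a section left out, 3 with a wall of 200 µm and 0 with the lining set from 3 cilia genes or from the top 1 percent of cells. Panel genes past the threshold there numbered 13, against 4 to 24 with a section left out, and 1 and 3 with those other linings. For the difference of the age change between wall and distant tissue, 5 of the 6 passed, against 0 to 6 with a section left out, 1 with library totals only and 0 with a wall of 50 µm, of 200 µm or with either other lining. The panel count of 13 became 0 to 46, 2, 1, 1, 0 and 0 in the same order. In the strips, 2 of the 6 and 7 panel genes passed, against 0 to 3 and 0 to 10 with a section left out, 4 and 24 by DESeq2, 6 and 32 with library totals only, and 6 and 42 with all borders. With no filter on low counts the panel count in the strips was 11, and with all segmented cells 19.

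With replicate numbers as a block, 6 of the 6 passed at the wall, while 0 genes passed in the strips, and in cell classes 0 of the 48 tests and 8 panel genes did. With the numbers crossed between ages as a block, chosen after seeing the data, 14 panel genes passed in the strips, 3 of the 6 among them, and 5 of the 6 at the wall. In whole sections the panel count of 5 fell to 1 with library totals only and to 0 or 1 with a section left out. Beyond 500 µm the panel count of 1 became 3 by DESeq2, 0 to 2 with a section left out, 0 with the lining from cilia genes and 2 with that from the top 1 percent. For wall against distant tissue these other linings gave 80 and 151 panel genes in place of 247. For the sides of the wall, 0 of the 6 passed with a limit of 30 percent, where Ccnd2 reversed to −0.47, and the panel count of 121 was 183 with a wall of 200 µm and 73 and 51 with the other linings. Over the cell classes, 3 tests of the 6 genes passed, against 1 to 6 with a section left out, 1 with cells beyond 500 µm and 1 at resolution 0.08. The panel count over classes was 22, against 62 by DESeq2, 66 with library totals only, 41 with mixed cells kept and 27 to 150 with a section left out.

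Changes close to 0 turned sign. In whole sections Dcx, at 0.00, was between −0.046 and 0.034 with a section left out, −0.0045 by DESeq2 and −0.039 with library totals only. Dlx6os1 was between −0.10 and 0.11 with a section left out and −0.024 with library totals only, and Sox4 between −0.61 and 0.087. Beyond 500 µm Sox4 was between −0.44 and 0.20 and Dlx6os1 between −0.046 and 0.16 with a section left out, and Dlx6os1 was −0.022 with the lining from cilia genes. The median co-expression ratio at the wall was 2.17 in cells thinned to 100 transcripts and 3.08 in cells thinned to 50. The cause of these shifts was not tested. In simulated data of the strips 47.3% of genes changed 2-fold and 6.25% of those changed 1.5-fold were called, and 2 sections per age limit every test. With a section left out, the age with 1 section is assumed to vary like the other.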
